A study of Homo sapiens with 20 samples.

Results

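The 31 genes described here are known as genes that androgens switch on in prostate cells. They were taken by symbol from general knowledge of that response, with earlier results of these data known. Of the 31, 28 were read by at least 1 probe set (a group of short probes for 1 transcript) annotated to that gene alone. They stand among 19775 genes measured in this way, and hold 81 of 41097 such probe sets. HERC3 was found only on probe sets shared with another gene, and MBOAT2 and SORD were not named by a probe set of the annotation used, so these 3 are not analysed here. For 8 of the 28 genes there was 1 probe set, and for the other 20 the brightest over all arrays was used and the rest served as a check.

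RNA was measured on 20 Affymetrix 3′ arrays in 6 groups of 2 human prostate cancer cell lines. LNCaP is an androgen-responsive line from a lymph node metastasis, and C42B is a castration-resistant line derived from it. For the androgen arrays, C42B was grown for 72 h in serum that charcoal had stripped of most steroids (CSS, at 10%) and then given 100 nM dihydrotestosterone (DHT) or ethanol vehicle for 16 h, with 4 arrays each. In the C42B siRNA experiment, cells were exposed for 6 h to an siRNA against LSD1 (siLSD1) or to the control labelled siNTC and cultured for another 96 h in RPMI medium with 10% CSS, with 3 arrays each. In LNCaP, the same pair of labels was used at 50 nM with 96 h in 10% fetal bovine serum (FBS), again with 3 arrays each. No androgen was added in either siRNA experiment, but FBS carries steroids and CSS has been stripped of them, so line and medium cannot be told apart wherever C42B and LNCaP are compared. Replicates were separate wells in C42B and pools of 2 wells in LNCaP, and a p-value here covers only the spread between such samples, which may be technical. A single siLSD1 reagent is named per line, so what its sequence does to other transcripts cannot be told apart from the loss of LSD1.

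The androgen receptor is a transcription factor that stays inactive until it binds testosterone or DHT. It then enters the nucleus and binds androgen response elements, which are inverted repeats of a hexamer close to AGAACA with a gap of 3 bases, most of them in enhancers far from the genes they control. In prostate luminal cells the receptor drives secreted proteins, transporters, lipid and metabolic enzymes and some growth genes. LSD1, encoded by KDM1A, removes methyl groups from histone lysines and has been described both as a corepressor and as a coactivator of this receptor.

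The letters of the response element were searched in the RefSeq promoter windows of the members (build GRCh38.p14, 250 bases before to 50 after a transcription start), which were at hand for 19 of the 28 genes, in 28 windows. The full palindrome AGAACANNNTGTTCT was in 1 of 35116 windows of all genes (0.00285%) and in none of the members' windows. A shorter core, GNACANNNTGTNC, which is its own reverse complement, was in 137 windows of all genes (0.39%) and in 2 of the members' 28 (7.14%), those of LINC00844 and GNMT. The hexamer AGAACA on either strand was in 5192 windows (14.8%) and in 3 of the members' 28 (10.7%), those of LINC00844, CTNNA2 and LIFR. The 4 windows that hold any of these letters are shown 5′ to 3′ along the gene, with the matches in capitals. In LINC00844 (chr10:58999268-58999567, plus strand) the hexamer starts 59 bases before the start site and the core, which overlaps it, 58 bases before. In GNMT (chr6:42960504-42960803, plus strand) the core starts 20 bases after the start. In CTNNA2 (chr2:79185127-79185426, plus strand) hexamers lie 100 bases before, on the opposite strand, and 32 bases after. In LIFR (chr5:38557418-38557717, minus strand) the hexamer starts 8 bases before.
LINC00844: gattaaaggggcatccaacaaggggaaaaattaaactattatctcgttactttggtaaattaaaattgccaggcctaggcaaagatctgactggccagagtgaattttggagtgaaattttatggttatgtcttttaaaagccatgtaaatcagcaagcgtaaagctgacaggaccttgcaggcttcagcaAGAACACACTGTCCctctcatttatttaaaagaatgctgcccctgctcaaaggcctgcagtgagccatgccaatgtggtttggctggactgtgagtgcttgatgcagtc
GNMT: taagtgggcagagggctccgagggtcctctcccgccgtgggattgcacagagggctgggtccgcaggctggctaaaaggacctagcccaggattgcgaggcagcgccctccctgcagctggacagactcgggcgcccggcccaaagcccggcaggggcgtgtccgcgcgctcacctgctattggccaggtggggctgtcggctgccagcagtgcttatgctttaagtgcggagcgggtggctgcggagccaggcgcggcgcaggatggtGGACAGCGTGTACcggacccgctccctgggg
CTNNA2: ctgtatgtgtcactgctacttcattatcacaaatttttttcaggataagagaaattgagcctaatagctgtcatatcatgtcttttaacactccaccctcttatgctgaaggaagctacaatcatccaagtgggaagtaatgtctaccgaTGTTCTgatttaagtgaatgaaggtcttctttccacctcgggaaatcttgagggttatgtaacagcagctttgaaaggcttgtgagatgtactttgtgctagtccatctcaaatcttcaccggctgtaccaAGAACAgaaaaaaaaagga
LIFR: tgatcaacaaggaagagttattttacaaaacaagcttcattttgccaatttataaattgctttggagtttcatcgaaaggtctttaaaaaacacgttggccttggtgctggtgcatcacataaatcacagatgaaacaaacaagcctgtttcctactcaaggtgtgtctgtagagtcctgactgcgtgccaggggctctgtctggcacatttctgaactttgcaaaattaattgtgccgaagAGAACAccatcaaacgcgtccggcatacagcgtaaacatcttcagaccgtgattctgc
These matches describe letters in a window and not bound sites. The 4 genes rose with DHT by 2.12 to 4.93 on the log2 scale, and the 15 members whose windows held none of the letters rose by 0.83 to 4.83, so the ranges overlap.

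All values below are log2 intensities, and a change is the difference of group means on that scale with the standard error (SE) of limma's fit. A gene passed at a limma adjusted p under 0.05 over 19775 genes, and a group mean under 6 was called dim, and for a change from or to a dim group the lower bound obtained by setting the dim group to 6 is also given ("at least"). Levels of different genes come from different probes and were not compared. Array medians were 63.3 to 65.1 intensity units in LNCaP, 78.4 to 81.2 on the siRNA arrays of C42B and 84.1 to 86.1 on its androgen arrays, so levels were compared by test only within an experiment. KDM1A was lower with siLSD1 on every array, with a change of −2.40 ± 0.08 in C42B (7.80 to 8.03 against 10.21 to 10.36) and −2.78 ± 0.08 in LNCaP (7.25 to 7.40 against 9.95 to 10.23), with limma adjusted p = 1.2e-05 and 2.4e-06. Of 10 prostate luminal markers 8 were measured, and all 8 were bright in every group, while at most 1 of 3 basal and 1 of 2 leukocyte markers was bright in any group. Of the 4 stromal and 3 endothelial markers 2 each were bright in every group, with COL1A1 at 7.81 to 8.94 and VWF at 6.42 to 7.73 as group means, and LUM, CDH5 and PTPRC were dim in all.

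DHT against vehicle addressed which of these genes respond to androgen in C42B. On the probe sets used all 28 measured members passed higher, 24 of them with a fitted change of at least 2-fold, but for TMEFF2, which is in both counts, another probe set passed lower. Over all genes 13.4% passed higher and 1.16% passed higher and at least 2-fold. The members were chosen as androgen-induced genes with earlier results of these data known, so these shares describe the setting and do not test the list. The median change was 2.03 for the members and 0.01 for all genes, and on no member did a DHT array overlap a vehicle array, where 14% of all genes separated in that direction. For 22 members both groups were bright, and their median was 1.72.

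**Figure D1:**
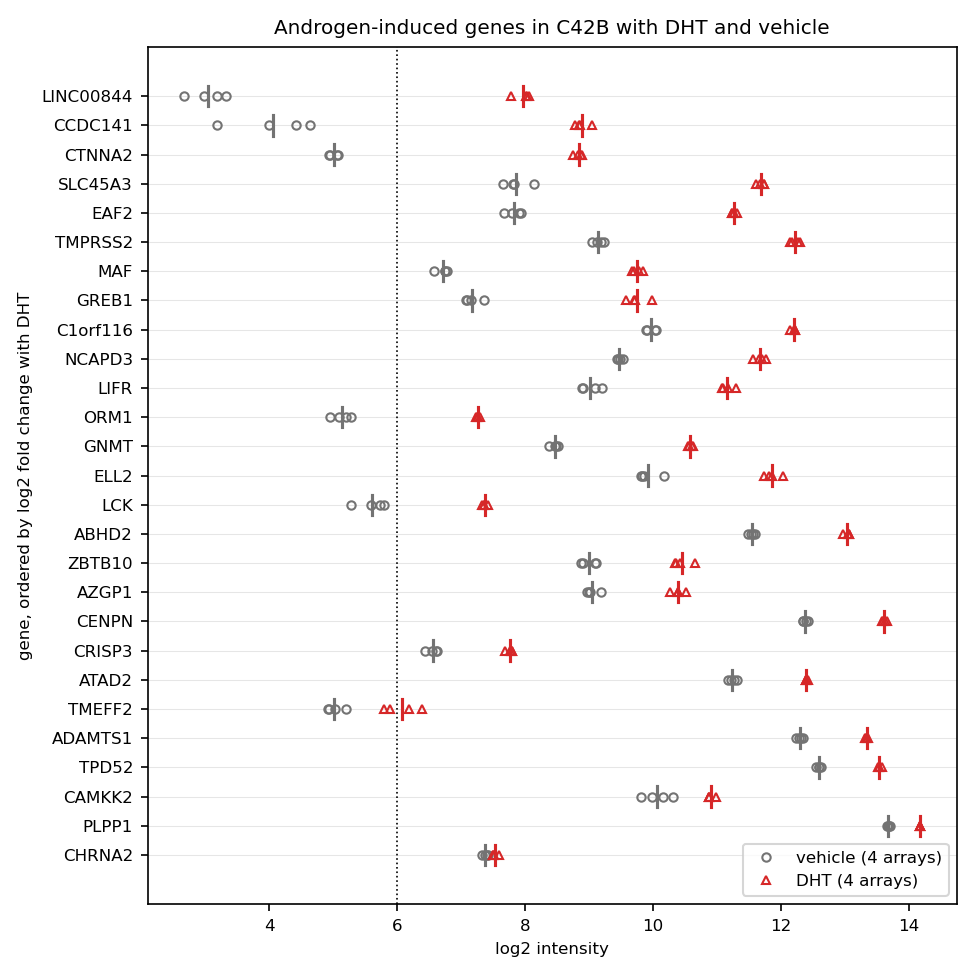
Log2 intensity of 27 androgen-induced genes on the 4 vehicle arrays (circles) and the 4 DHT arrays (triangles) of C42B, with group means as vertical bars and the dim limit of 6 as a dotted line. The triangles lie to the right of the circles for every gene, by 4.93 in the top row (LINC00844) and by 0.15 in the bottom row (CHRNA2).

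Among secreted proteins and proteases, TMPRSS2, a membrane serine protease whose promoter is often fused to ETS genes in prostate cancer, read 9.12, 9.18, 9.23 and 9.05 with vehicle and 12.18, 12.27, 12.15 and 12.30 with DHT. That is an 8.46-fold rise (3.08 ± 0.05, limma adjusted p = 7.2e-10). Its 3 other probe sets rose as well, by 1.00, 2.12 and 2.98. The acute-phase plasma protein ORM1 went from 4.95 to 5.28 with vehicle, which is dim, to 7.23 to 7.30 with DHT, at least 2.39-fold, and its near-identical paralog ORM2 shares 2 further probe sets with it. AZGP1, a zinc-binding glycoprotein of seminal fluid, rose by 1.35 ± 0.07, the cysteine-rich secretory protein CRISP3 by 1.21 ± 0.05 and the secreted metalloprotease ADAMTS1 by 1.05 ± 0.04. So all 5 genes of this role rose at least 2-fold as measured, and only TMPRSS2 more than 3-fold with both groups bright.

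The largest fitted changes were those of a non-coding RNA and of genes of signalling and cell contact, which also held the smallest. The long non-coding RNA LINC00844 was dim with vehicle at 2.67, 3.18, 3.32 and 2.98 and bright with DHT at 8.01, 8.06, 8.03 and 7.78, a rise of at least 3.91-fold (fitted change 4.93 ± 0.13). The coiled-coil protein gene CCDC141 read 4.42, 3.18, 4.00 and 4.63 with vehicle and 9.05, 8.78, 8.86 and 8.85 with DHT, at least 7.39-fold. CTNNA2, an alpha-catenin that links cadherins to actin and is best known from neurons, read 4.93 to 5.08 and 8.75 to 8.89, at least 7.14-fold. In these 3 genes the vehicle group lay below 6 on every array, so the fitted folds rest on dim values. LIFR, the receptor for leukaemia inhibitory factor, rose by 2.14 ± 0.08 and the Src-family kinase LCK, best known from T cells, by at least 1.37. The other probe set of LCK rose by 0.78 ± 0.14. CAMKK2, a kinase that activates AMPK and a much-studied androgen target, rose by 0.83 ± 0.10, and by 1.86 and 1.55 on its 2 next probe sets, while its dimmest one gave 0.35 with limma adjusted p = 0.061. The smallest response was that of CHRNA2, a nicotinic receptor subunit, at 7.40, 7.32, 7.38 and 7.42 with vehicle and 7.52, 7.50, 7.59 and 7.49 with DHT. Its change of 0.15 ± 0.04 passed (limma adjusted p = 0.026) but missed the threshold when DHT replicate 1 or 3 or vehicle replicate 2 or 3 was left out (limma adjusted p = 0.055 to 0.073) and with trend and robust eBayes or the replicate block (limma adjusted p = 0.080 and 0.055).

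TMEFF2, a membrane protein with follistatin and EGF-like domains, could not be given a direction in C42B. The probe set used read 4.91 to 5.20 with vehicle and 5.80 to 6.39 with DHT, a rise of at least 0.07 to a mean barely above the dim limit. A further probe set, brighter in C42B, moved the other way, by −0.30 ± 0.09 (limma adjusted p = 0.026 over all 1-gene probe sets).

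In the transcription and chromatin group all 6 genes rose at least 2-fold, as did both genes of chromosome structure. ELL2, an RNA polymerase II elongation factor, and its partner EAF2 rose together but by different amounts. EAF2 went from 7.67, 7.93, 7.90 and 7.79 to 11.26, 11.31, 11.23 and 11.24, 10.85-fold (3.44 ± 0.06), and ELL2 from 9.82 to 10.18 up to 11.74 to 12.03, 3.84-fold (1.94 ± 0.09). The basic leucine zipper factor MAF rose by 3.04 ± 0.06, GREB1, a steroid receptor cofactor first known from oestrogen response, by 2.58 ± 0.09, and the zinc finger repressor ZBTB10 by 1.45 ± 0.08. ATAD2, a bromodomain ATPase tied to proliferation, rose from 11.17 to 11.31 up to 12.39 to 12.42 (1.16 ± 0.04). NCAPD3, a subunit of the condensin II complex that compacts mitotic chromosomes, rose 4.57-fold (2.19 ± 0.05), and CENPN, a kinetochore protein, 2.36-fold (1.24 ± 0.04). In the same arrays the summed level of 20 proliferation genes (log2 of their added intensities) was 15.90 to 15.93 with DHT and 15.92 to 15.96 with vehicle. Of the 20, 4 passed higher and 5 lower, where 13.4% and 19.4% of all genes did, and their part in these rises was not tested.

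Among metabolic and transport genes, SLC45A3 (prostein), a prostate-enriched sugar transporter, rose 14.22-fold, from 7.65, 8.14, 7.82 and 7.81 to 11.61, 11.73, 11.73 and 11.67 (3.83 ± 0.09, limma adjusted p = 4.3e-09). GNMT, which uses S-adenosylmethionine to methylate glycine, rose by 2.12 ± 0.04 and the lipid hydrolase ABHD2 by 1.49 ± 0.04. TPD52, a vesicle-trafficking protein, rose by 0.95 ± 0.04 and the phospholipid phosphatase PLPP1 by 0.49 ± 0.03, both short of 2-fold. C1orf116, named elsewhere as specifically androgen-regulated gene, rose 4.68-fold (2.23 ± 0.05). Of 43 bright further probe sets of the 28 genes, 39 passed higher, 3 did not pass and 1, that of TMEFF2, passed lower.

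The siLSD1 and siNTC arrays of C42B addressed what happens to the same genes with siLSD1 in steroid-stripped medium. Of the 28 members 14 rose, 2 fell and 12 did not pass, where 8.66% of all genes passed higher and 9.39% lower. Of the 14, 5 rose at least 2-fold (CRISP3, LCK, GREB1, SLC45A3 and MAF), where 0.217% of all genes did. The median change was 0.32 for members and −0.02 for all genes. The groups separated completely with siLSD1 higher for 17 members (16.3% of all genes) and lower for 4 (19.9%), and they overlapped for 7.

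**Figure D2:**
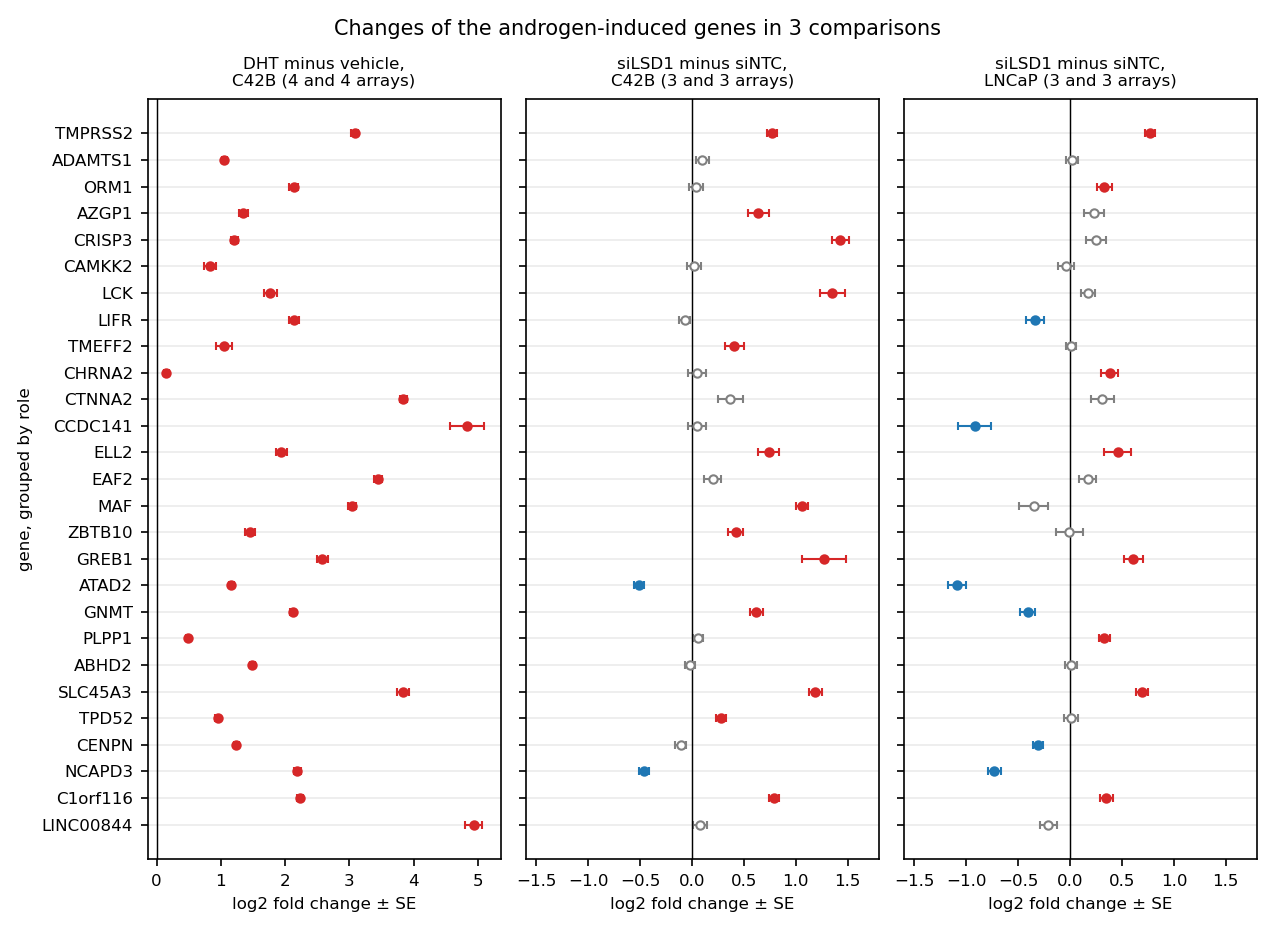
Log2 fold change with its SE for 27 androgen-induced genes, ordered by role, in the 3 comparisons; red points passed higher, blue points passed lower and open grey points did not pass, and the axis of the DHT panel runs further than the others. All 27 points are red with DHT, 13 are red and 2 blue with siLSD1 in C42B, and 8 are red and 6 blue with siLSD1 in LNCaP.

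The 5 larger rises came from 4 roles. CRISP3 read 7.61, 7.72 and 7.59 with siNTC and 8.91, 9.14 and 9.16 with siLSD1, a 2.70-fold rise (1.43 ± 0.08, limma adjusted p = 0.00016). LCK read 6.04, 5.65 and 5.77 with siNTC and 7.36, 7.01 and 7.16 with siLSD1, a rise of at least 2.26-fold from a dim mean. The other probe set of LCK, of similar brightness, gave only 0.37 ± 0.10 (limma adjusted p = 0.05), so the 2-fold rise rests on the probe set used. GREB1 read 7.83, 7.87 and 7.28 against 8.52, 9.10 and 9.16, a rise of 1.27 ± 0.21 whose replicates were the most spread of these 5, with 0.06 ± 0.07 (limma adjusted p = 0.63) and, dim, 0.38 ± 0.09 (limma adjusted p = 0.034) on its other probe sets. SLC45A3 went from 9.74, 9.67 and 9.65 to 10.95, 10.84 and 10.82 (1.19 ± 0.06), with 0.85 on its other probe set. MAF went from 8.27, 8.28 and 8.27 to 9.27, 9.29 and 9.44 (1.06 ± 0.06). In each of the 5 genes every siLSD1 array lay above every siNTC array.

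The other rises were smaller than 2-fold. TMPRSS2 went from 11.75, 11.67 and 11.67 to 12.44, 12.48 and 12.48 (0.77 ± 0.05, limma adjusted p = 0.00021), and its 3 other probe sets rose by 0.37, 0.78 and 0.75. C1orf116 rose by 0.79 ± 0.05, ELL2 by 0.74 ± 0.10, AZGP1 by 0.64 ± 0.10, GNMT by 0.62 ± 0.06, ZBTB10 by 0.42 ± 0.07 and TPD52 by 0.28 ± 0.05. For ZBTB10, 2 other probe sets gave 0.13 each and did not pass (limma adjusted p = 0.26 and 0.19). TMEFF2 was dim in both groups (0.41 ± 0.09 on the probe set used), its brighter probe set gave −0.61 ± 0.17 (limma adjusted p = 0.049), and the rise missed the threshold without siLSD1 replicate 3, siNTC replicate 1 or siNTC replicate 3 (limma adjusted p = 0.051 to 0.077). By role, 3 of 5 secreted proteins and proteases, 3 of 8 signalling genes, 4 of 6 transcription genes and 3 of 5 metabolic genes passed higher.

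The 2 members that fell with siLSD1 in C42B belong to cell division or are tied to it. ATAD2 read 10.97, 10.96 and 10.96 with siNTC and 10.43, 10.50 and 10.42 with siLSD1 (−0.51 ± 0.05, limma adjusted p = 0.00083), but its 3 other probe sets gave −0.24, 0.01 and 0.03 and did not pass. NCAPD3, read by 1 probe set, went from 9.93, 9.85 and 9.82 to 9.42, 9.42 and 9.37 (−0.46 ± 0.05, limma adjusted p = 0.0015). CENPN gave −0.11 ± 0.05 on the probe set used (limma adjusted p = 0.18), while 2 of its other probe sets passed higher at 0.32 and 0.37. In the same arrays 15 of 20 proliferation genes passed lower and none higher, where 9.39% and 8.66% of all genes did. Their summed levels were 15.40 to 15.49 against 15.71 to 15.79, and the part of this in the falls was not tested.

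Members that rose strongly with DHT were also among the 12 that did not pass. EAF2 read 7.58, 7.79 and 7.86 with siNTC and 7.90, 7.99 and 7.94 with siLSD1 (0.20 ± 0.08, limma adjusted p = 0.13). LINC00844 read 7.07, 7.15 and 7.03 against 7.12, 7.30 and 7.09 (0.08 ± 0.07), and CCDC141 was dim in both groups at 3.80 to 4.12. LIFR gave −0.07 ± 0.05 on the probe set used and 0.75 ± 0.08 on a dim one that passed (limma adjusted p = 0.0016), and CTNNA2 gave 0.37 ± 0.12 (limma adjusted p = 0.077) and passed without siNTC replicate 3 (0.51, limma adjusted p = 0.011), among bright genes only (limma adjusted p = 0.047) and with trend and robust eBayes (limma adjusted p = 0.030). CAMKK2, ABHD2, ADAMTS1, PLPP1, ORM1 and CHRNA2 lay between −0.02 and 0.10 on the probe sets used. Other bright probe sets of 3 of these passed, that of ADAMTS1 at 0.33 ± 0.08 (limma adjusted p = 0.035), that of PLPP1 at 0.25 ± 0.05 (limma adjusted p = 0.020) and 1 of ABHD2 at −0.28 ± 0.06 (limma adjusted p = 0.024). With the mean of all probe sets ADAMTS1 passed at 0.21 (limma adjusted p = 0.046).

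In LNCaP, kept in FBS, the members split more evenly. With siLSD1 9 rose, 6 fell and 13 did not pass, where 13.4% of all genes passed higher and 12.5% lower, and the median was 0.09 for members and 0.01 for all genes. No member rose 2-fold, and ATAD2 alone fell 2-fold, where 0.662% and 1.03% of all genes did. Complete separation was seen with siLSD1 higher for 12 members (20.6% of all genes) and lower for 7 (19.5%).

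The rises in LNCaP were led by TMPRSS2, SLC45A3 and GREB1. TMPRSS2 read 12.18, 12.21 and 12.14 with siNTC and 12.97, 12.93 and 12.95 with siLSD1 (0.77 ± 0.05, limma adjusted p = 3.6e-05). SLC45A3 read 11.03, 11.06 and 11.02 against 11.75, 11.77 and 11.66 (0.69 ± 0.06), and GREB1 8.59, 8.78 and 8.41 against 9.20, 9.20 and 9.21 (0.61 ± 0.09). On the probe sets used, all 3 of these genes had separate groups in both lines. The rise of GREB1 rests on that probe set. Its 2 other ones, both dim in LNCaP, gave −0.09 each without passing. The mean of all 3, which includes these dim ones, gave 0.14 (limma adjusted p = 0.097). The other probe set of SLC45A3 rose by 0.75 ± 0.07. ELL2 rose by 0.46 ± 0.13 (limma adjusted p = 0.035) but missed the threshold when any 1 siLSD1 array was left out (limma adjusted p = 0.061 to 0.12), although 2 further probe sets rose by 0.39 and 1.31. C1orf116 rose by 0.35 ± 0.06, with 0.57 and 0.25 on its other probe sets, the latter not passing (limma adjusted p = 0.060). CHRNA2 (0.38 ± 0.08), PLPP1 (0.33 ± 0.05) and ORM1 (0.33 ± 0.07, dim in both groups) rose in LNCaP and did not pass in C42B on the probe sets used. The other probe set of PLPP1, about as bright, passed higher in both lines, at 0.25 ± 0.05 in C42B and 0.23 ± 0.06 in LNCaP. TMEFF2, bright in LNCaP, gave 0.01 ± 0.06 on the probe set used, while another one rose by 0.89 ± 0.08 (limma adjusted p = 0.00014) and the mean of all passed at 0.26 (limma adjusted p = 0.022).

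The falls in LNCaP included both cell-division genes and ATAD2. ATAD2 read 10.31, 10.60 and 10.48 with siNTC and 9.25, 9.44 and 9.42 with siLSD1, a fall of 53.2% (−1.09 ± 0.09, limma adjusted p = 7.4e-05), and its 3 other probe sets fell too, by 0.99, 0.78 and 1.34. NCAPD3 fell from 9.85, 10.00 and 9.93 to 9.23, 9.18 and 9.17 (−0.73 ± 0.06) and CENPN from 11.47, 11.43 and 11.42 to 11.13, 11.14 and 11.14 (−0.31 ± 0.05). The other probe sets of CENPN gave −0.26 ± 0.06 (limma adjusted p = 0.019), −0.07 ± 0.08 (limma adjusted p = 0.60) and, dim, 0.10 ± 0.08, and with the mean of all it did not pass (−0.13, limma adjusted p = 0.084). Of the 20 proliferation genes 19 passed lower and none higher in LNCaP, where 12.5% and 13.4% of all genes did. Their summed levels were 14.17 to 14.29 against 15.19 to 15.30, and their part in these falls was not tested. GNMT fell from 9.38, 9.60 and 9.58 to 9.06, 9.16 and 9.11 (−0.41 ± 0.07, limma adjusted p = 0.0043). CCDC141 fell within the dim range, from 5.70, 5.72 and 5.73 to 4.47, 4.71 and 5.20. LIFR passed lower (−0.34 ± 0.09, limma adjusted p = 0.029) but not without siLSD1 replicate 1 or 3 or siNTC replicate 2 or 3 (limma adjusted p = 0.077 to 0.091). Its other probe sets disagreed. A dim one passed higher at 0.72 ± 0.10, and one near the dim limit (6.17 in its brighter group) passed lower at −0.60 ± 0.18 (limma adjusted p = 0.05). A bright one gave 0.07 ± 0.07 (limma adjusted p = 0.56), and the mean of all LIFR probe sets, dim ones included, gave −0.02. MAF gave −0.35 ± 0.14 (limma adjusted p = 0.12) and passed lower without siNTC replicate 1 (−0.47, limma adjusted p = 0.039), with the replicate block (limma adjusted p = 0.0079), with the mean of all probe sets (−0.22, limma adjusted p = 0.043) and on another bright probe set (−0.30 ± 0.07, limma adjusted p = 0.012). LINC00844 gave −0.21 ± 0.08 (limma adjusted p = 0.076) and passed lower without siNTC replicate 3 (−0.28, limma adjusted p = 0.037), and CTNNA2 gave 0.31 ± 0.11 (limma adjusted p = 0.067) and passed higher without siLSD1 replicate 1 (limma adjusted p = 0.045) or siNTC replicate 2 (limma adjusted p = 0.017).

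Across both siRNA experiments, 6 members passed higher in each line (among them TMPRSS2, ELL2, GREB1, SLC45A3 and C1orf116) and 2 passed lower in each (ATAD2 and NCAPD3). The share of all genes passing alike in both lines was not worked out, so these counts are a description only. GNMT passed higher in C42B and lower in LNCaP, as did MAF under the alternatives just given for LNCaP. Over the 28 members the siLSD1 changes of both lines had a Pearson correlation of 0.59 and a Spearman correlation of 0.57, given as a description, since the points share arrays and the genes are not independent.

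Whether a gene's siLSD1 change differed between the lines was tested directly as the C42B change minus the LNCaP change over 12 arrays. The difference passed as higher in C42B for 12 members and as lower for 1, where 5.56% and 6.07% of all genes passed, and the median was 0.27 for members and −0.02 for all genes. MAF differed by 1.41 ± 0.17 (limma adjusted p = 0.00028), CRISP3 by 1.18 ± 0.13, LCK by 1.18 ± 0.15, GNMT by 1.03 ± 0.09 (limma adjusted p = 4.6e-05) and CCDC141, dim in all 4 groups, by 0.97 ± 0.20. LCK was bright only with siLSD1 in C42B (mean 7.18). It averaged 5.82 with siNTC in C42B and 4.77 and 4.95 with siNTC and siLSD1 in LNCaP, so its LNCaP change was read within the dim range. The other probe set of LCK gave 0.32 ± 0.14 and did not pass (limma adjusted p = 0.21). ATAD2 fell less in C42B, by 0.58 ± 0.11, while 19 of the 20 proliferation genes also passed as higher in C42B in this test, and their part was not tested. On the probe sets used SLC45A3 (0.50 ± 0.08) and C1orf116 (0.44 ± 0.07) rose more in C42B. For SLC45A3 the other probe set gave 0.10 ± 0.14 (limma adjusted p = 0.75) and the mean of both 0.30 (limma adjusted p = 0.057), while for C1orf116 the others gave 0.33 each, 1 of them not passing (limma adjusted p = 0.060). For TMPRSS2 the difference was 0.00 ± 0.07 (limma adjusted p = 0.99), and for GREB1 0.66 ± 0.25 (limma adjusted p = 0.12), which passed without C42B siLSD1 replicate 1 (0.86, limma adjusted p = 0.020) or with the mean of all probe sets (0.42, limma adjusted p = 0.013). For CENPN 0.19 did not pass, but the mean of all probe sets (0.25, limma adjusted p = 0.027) and 2 other probe sets (0.58 and 0.45) did. The passes of TPD52 (0.27), NCAPD3 (0.27), TMEFF2 (0.41) and PLPP1 (−0.27, more in LNCaP) were each lost on leaving out 10, 9, 7 and 5 of the 12 arrays in turn, with limma adjusted p = 0.050 to 0.11. For TMEFF2 another probe set, bright in LNCaP only, passed the other way (−0.95 ± 0.13, limma adjusted p = 0.00097), and for PLPP1 the other one gave 0.01 ± 0.07. The other probe sets of TPD52 gave 0.27, 0.47, 0.52 and −0.04. None passed over all 1-gene probe sets (limma adjusted p = 0.069 to 0.83), where the one used did not either (limma adjusted p = 0.071). The mean of all TPD52 probe sets gave 0.30 (limma adjusted p = 0.052). Single arrays also brought passes that the full fit did not give: AZGP1 without C42B siLSD1 replicate 1 or LNCaP siNTC replicate 1 (0.51 and 0.52), ZBTB10 (0.58) and ELL2 (0.44) without that LNCaP array, ORM1 (−0.36) and LINC00844 (0.36) without LNCaP siNTC replicate 3, LIFR (0.36) without LNCaP siLSD1 replicate 2 and CHRNA2 (−0.44) without C42B siLSD1 replicate 1.

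The size of the siLSD1 change in C42B was then set against the size of the DHT change, each against its own control arrays. The siLSD1 change passed as lower than the DHT change for 25 of 28 members and as higher for none, where 14.4% of all genes passed as lower and 16.0% as higher in this test. The median difference was −1.47. Because all 28 members were chosen as androgen-induced and rose with DHT, this direction follows largely from the choice of genes. ATAD2 (−0.51) and NCAPD3 (−0.46) fell with siLSD1 on the probe sets used, so their change was opposite and not just smaller. The widest gaps were those of LINC00844 (−4.85 ± 0.17), CCDC141 (−4.78 ± 0.34), CTNNA2 (−3.47 ± 0.13) and EAF2 (−3.24 ± 0.10), 3 of which start from dim vehicle values. For CRISP3 the difference was 0.23 ± 0.09 (limma adjusted p = 0.087) and for LCK −0.42 ± 0.17 (limma adjusted p = 0.081). LCK, dim in both control groups, passed as smaller with the mean of all probe sets, quantile normalization, trend and robust eBayes and the replicate block (limma adjusted p = 0.025 to 0.043). As a share of its DHT change on the log2 scale, the siLSD1 change was 118.8% for CRISP3, 49.1% for GREB1, 34.8% for MAF, 31% for SLC45A3, 25.1% for TMPRSS2 and 5.7% for EAF2. These shares set 96 h of siRNA culture against 16 h of DHT, from control levels that differed between the experiments, and so do not measure relative strength. The correlation of the siLSD1 and DHT changes across the 28 members was 0.17 (Pearson) and 0.25 (Spearman). CRISP3 passed as larger with siLSD1 without C42B siLSD1 replicate 1 (0.31, limma adjusted p = 0.011) or vehicle replicate 4 (0.26, limma adjusted p = 0.049), LCK passed as smaller without C42B siLSD1 replicate 1 or vehicle replicate 3 (limma adjusted p = 0.040 and 0.047) and CHRNA2 as smaller without C42B siLSD1 replicate 1 (limma adjusted p = 0.031).

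**Figure D3:**
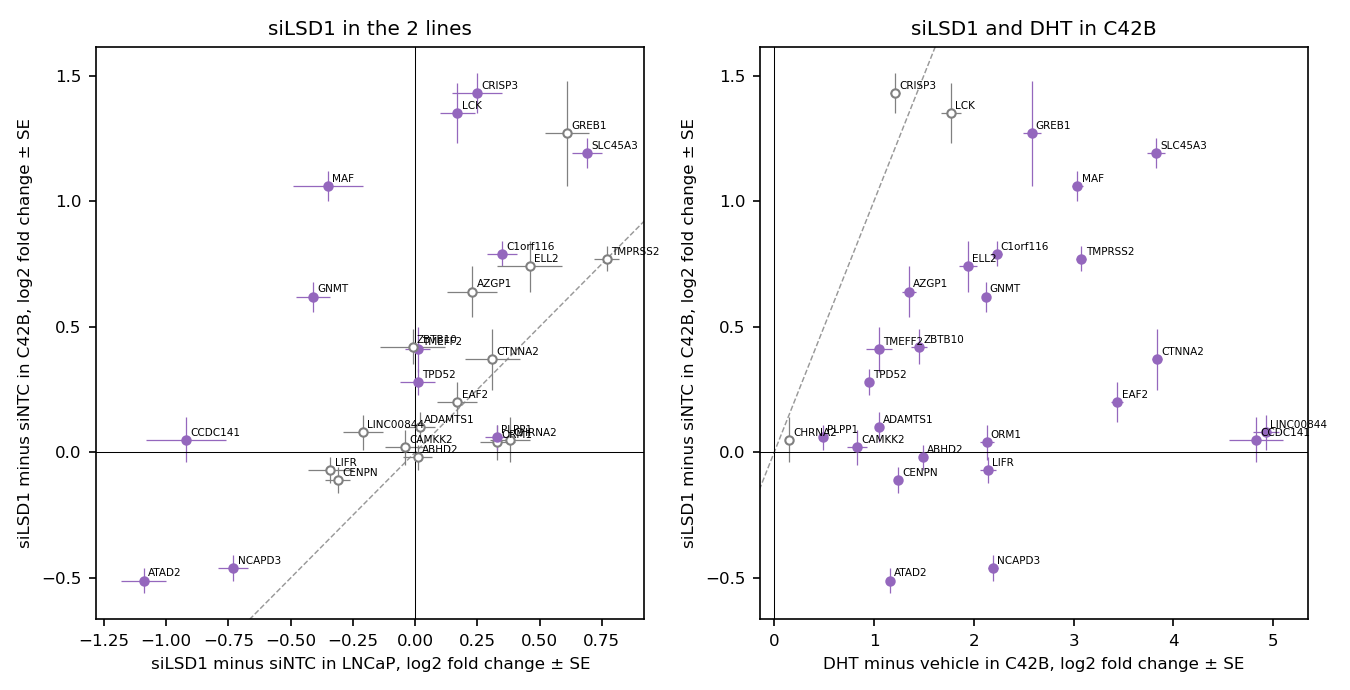
Log2 fold changes of 27 genes with SE bars: on the left siLSD1 in C42B against siLSD1 in LNCaP, on the right siLSD1 in C42B against DHT in C42B; filled purple points passed the test of the difference between the axes, open points did not, and the dashed line marks equal changes. On the left 11 filled points lie above the dashed line and PLPP1 below it; on the right 24 lie below it, and CRISP3, LCK and CHRNA2 are open.

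The levels with vehicle, siNTC and DHT show where the genes stood in C42B cells that had no siLSD1. The experiments were apparently normalized apart and differ in culture and time, so these levels are set side by side without a test. With siNTC, 24 of 28 members read above vehicle-treated C42B (85.7%, where 50.2% of all genes did), and 9 were above it by more than 1 on the log2 scale (32.1%, where 1.66% of all genes were). LINC00844 averaged 3.04 with vehicle, 7.09 with siNTC and 7.97 with DHT, and TMPRSS2 9.14, 11.70 and 12.23. AZGP1 averaged 9.04 with vehicle, 10.67 with siNTC and 10.39 with DHT. Other members stood near vehicle in the siNTC cells: EAF2 averaged 7.82 with vehicle, 7.74 with siNTC and 11.26 with DHT, CCDC141 4.06, 3.94 and 8.89, and LIFR 9.02, 9.24 and 11.16. Both siNTC and vehicle cells were C42B in CSS without added androgen, and their differences in time, transfection and normalization cannot be told apart.

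**Figure D4:**
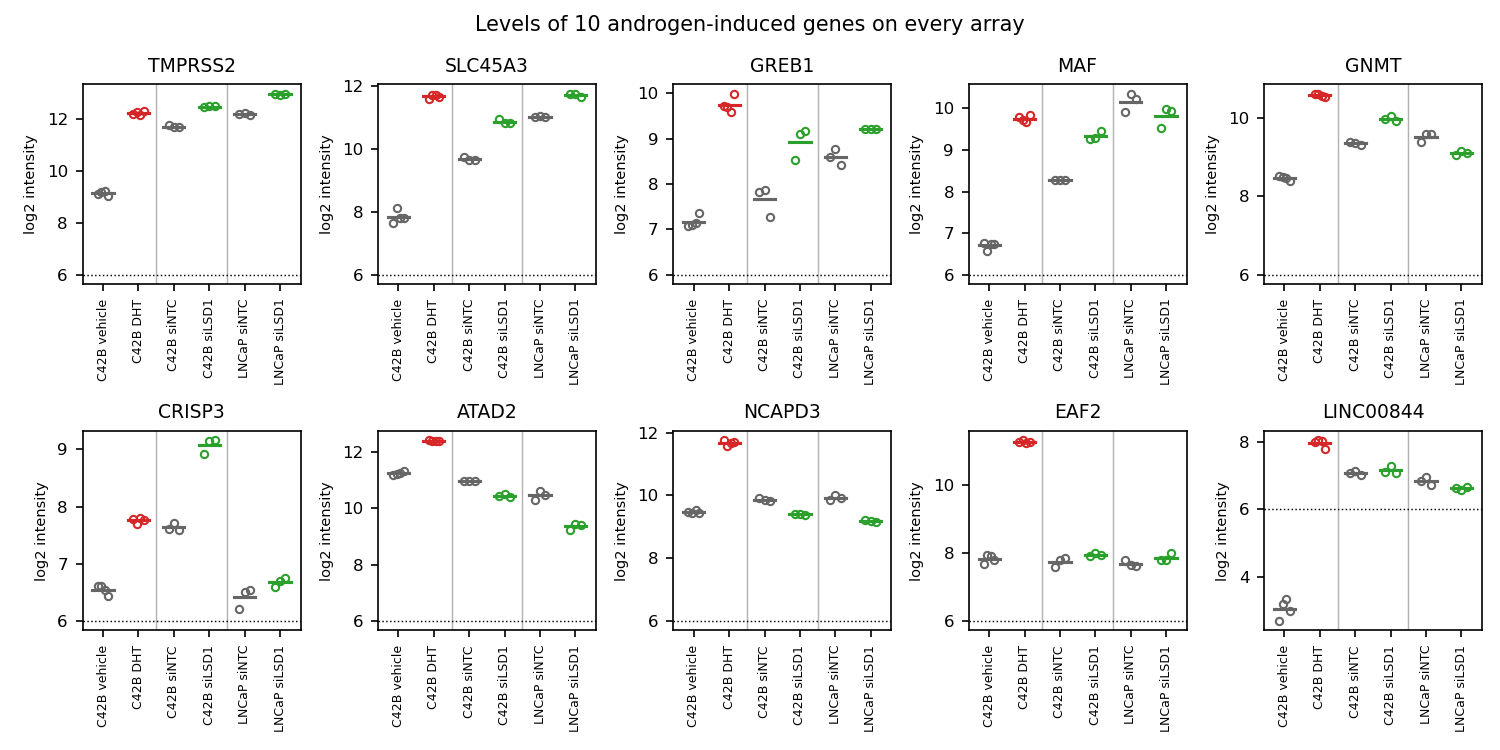
Log2 intensity of 10 androgen-induced genes on every array, with group means as bars, grey lines between the 3 experiments and the dim limit of 6 dotted. TMPRSS2, SLC45A3 and LINC00844 stand higher with siNTC than with vehicle in C42B, EAF2 is high with DHT only, and ATAD2 and NCAPD3 are lower with siLSD1 than with siNTC in both lines.

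Lists of related genes give the setting of these changes. Over all genes 13.4% passed higher and 19.4% lower with DHT, 8.66% and 9.39% with siLSD1 in C42B, and 13.4% and 12.5% in LNCaP. Of 34 other androgen-induced genes 29 were measured, of which 25 rose and 1 fell with DHT (median 1.75), 16 rose and 1 fell with siLSD1 in C42B (median 0.24) and 18 rose and 3 fell in LNCaP (median 0.28). With DHT their largest fitted changes were those of the metalloreductase STEAP4 (at least 3.51), the kallikrein KLK2 (5.19 ± 0.06) and the cold-sensing channel TRPM8 (at least 3.86), and TRPM8 also led this list with siLSD1, at 1.5 ± 0.05 in C42B and 1.88 ± 0.06 in LNCaP. Of 12 androgen-repressed genes 6 fell and none rose with DHT, where 19.4% of all genes passed lower, among them UGT2B17 (to a dim mean, lower by at least 1.18) and its close paralog UGT2B15 (−2.09 ± 0.11), which conjugate androgens, and CAMK2N1, an inhibitor of CaM kinase II (−2.02 ± 0.06). With siLSD1, 3 rose and 2 fell in C42B, and 6 rose and 4 fell in LNCaP. Of 13 partners and coregulators of the androgen receptor 8 were measured. The coactivator NCOA2 fell with DHT (−0.84 ± 0.05) and rose with siLSD1 in C42B (0.30 ± 0.07) and LNCaP (0.70 ± 0.07), the only pass of that list with siLSD1 in either line. The factor GRHL2 rose (0.80 ± 0.05) and HOXB13 fell (−0.49 ± 0.05) with DHT, where 1 of the 8 passed higher and 5 lower.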

How the data were processed

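The authors deposited linear intensities (4.34 to 36333), 1 per probe set. Per the submitters' processing notes these were made with the affy package's RMA; its version is not given in the sources used here. RMA shrinks differences of dim probe sets, and the arrays' distributions differ by experiment, so no levels were tested across experiments. Of the labelling kits in the labels none is tied to a sample. From the deposited intensities log2 was taken, and the brightest probe set of 1 gene stood for each of 19775 genes, of 41097 probe sets naming 1 gene, 1801 naming several and 11777 naming none. No dim probe set was removed.

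Each comparison was fitted on its own arrays, without covariates, with lmFit and eBayes of limma 3.58.1 (R 4.3.3), two-sided, with Benjamini-Hochberg adjustment over all genes. Differences of effects were contrasts over 12 or 14 arrays. The fit was tested on simulated data. Tables were made with pandas 2.3.3 and numpy 2.4.6 in Python 3.11.15, and plots with matplotlib 3.10.9. Promoter sequences are from RefSeq, build GRCh38.p14.

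The members and lists were chosen with earlier results of these data known. 1 measured member, not reported here by name or drawn, is in the counts. By rule, the other members, KDM1A and up to 3 genes per list with the largest passing change were named. Alternatives were the mean of all probe sets, bright genes only, quantile normalization, median centring, eBayes with trend and robust, a replicate block, and leaving out each array. Fitting every 1-gene probe set on its own was added after seeing the data. No 2 arrays held identical values, and the SD of log2 differences between replicates was 0.12 to 0.193. The number of arrays limits the precision.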

Additional observations from a re-analysis of the deposited data

Results flagged for a closer look

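In 3 of the 56 groups of 4 arrays tested (28 genes with DHT and with vehicle), 1 array stood apart from the rest of its group by Dixon's criterion, and chance alone gives about 1 in 20. CAMKK2 read 10.98 on 1 DHT array and 10.87 to 10.88 on the others. ELL2 read 10.18 on 1 vehicle array, with 9.82 to 9.86 on the others. MAF read 6.58 on 1 vehicle array, with 6.75 to 6.77 on the others. All 3 genes kept their DHT call when any 1 array was left out.

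The siLSD1 change differed between C42B and LNCaP, by the test of the difference itself, for 12 named members. It was higher in C42B for MAF (1.41), CRISP3 and LCK (1.18 each), GNMT (1.03), CCDC141 (0.97, dim in all 4 groups), ATAD2 (0.58), SLC45A3 (0.50), C1orf116 (0.44), TMEFF2 (0.41) and TPD52 and NCAPD3 (0.27 each), and lower for PLPP1 (−0.27). LCK was dim in every one of these groups except siLSD1 in C42B. For TMEFF2 another probe set passed the other way (−0.95), and for LCK, SLC45A3 and PLPP1 the other probe set did not pass (0.32, 0.10 and 0.01). None of the other probe sets of TPD52 passed (−0.04 to 0.52). On the probe sets used GNMT alone passed in opposite directions in the lines. Serum differed between the lines as well, so line and medium cannot be told apart in any of these differences.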

How the results depend on the processing

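Replicate numbers gave no pairing: deviations from the group mean correlated at −0.096 to 0.199 between arrays that share a number and at −0.241 to 0.192 between those that do not. With the replicate block the members passing higher were 27 with DHT, 14 with siLSD1 in C42B and 11 in LNCaP, and 10 were higher and 0 lower in the difference between the lines, where the call for PLPP1 was lost. That call was also lost, leaving 0 lower, with the mean of all probe sets and with median centring. With the mean of all probe sets 1 member in place of 2 passed lower with siLSD1 in C42B, as ATAD2 gave −0.18 (limma adjusted p = 0.099), LIFR turned to 0.19 there (limma adjusted p = 0.035) and TMEFF2 to −0.09, and the difference between the lines for TMEFF2 turned to −0.35. A further TMEFF2 probe set gave −0.61 with siLSD1 in C42B and −0.30 with DHT. A further, dim LIFR probe set gave 0.72 with siLSD1 in LNCaP, where another gave −0.60. Leaving out each array gave 27 to 28 members higher with DHT, 13 to 14 higher with siLSD1 in C42B, 8 to 10 higher and 5 to 7 lower in LNCaP, 8 to 15 higher and 0 to 2 lower in the difference between the lines, and 25 to 27 lower and 0 to 1 higher for siLSD1 minus DHT. Genes called over the whole array numbered 1907 to 3962 with siLSD1 in C42B, against 3569 with all arrays. Scaling moved the median of all genes by under 0.1. The cause of these changes was not tested. Members dim in both groups with siLSD1 (ORM1, TMEFF2 and CCDC141 in C42B, ORM1, LCK and CCDC141 in LNCaP) are limited by signal over background.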
